A study of Mus musculus with 4 samples.

Results

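The genes described here are the heat shock proteins and the J-domain cochaperones of the mouse, with a few of their regulators and helpers. They were taken by symbol, as every gene whose single symbol in the platform annotation starts with Hsp, Dnaja, Dnajb or Dnajc, together with Hsf2, Bag1, Bag2, Bag3, St13 and Stip1, and without Hspa5. This gave 78 of the 18193 genes that a probe set with 1 symbol represents on the array. Hsf1 and Hsp90ab1 were not analysed here. RNA had been measured on 4 Affymetrix Mouse430_2 arrays from bone marrow-derived macrophages of MyD88 -/- mice, grown for 6 days with recombinant human M-CSF, the growth factor of macrophages. On 2 arrays the cells had received zymosan, a preparation of yeast cell wall, at 100 ug/ml for 120 min, and on the other 2 they were unstimulated (0 min). MyD88, the adaptor of most Toll-like receptors and of the interleukin-1 receptor, was lacking in both groups, and no MyD88-sufficient array was analysed, so nothing here shows whether MyD88 matters for these genes. The titles of the zymosan arrays carry ZYM, while those of the unstimulated arrays carry LPS on one and PIC on the other, so no unstimulated array is titled as part of a zymosan series. Separate animals or cultures are not named for any array. The p-values below therefore reflect array-to-array scatter, and that scatter could be technical alone.

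Heat shock proteins are molecular chaperones. They bind unfolded or newly made proteins, keep them from aggregating and let them fold. HSP70 works in a cycle of ATP hydrolysis that J-domain proteins start and nucleotide exchange factors end, and it hands some of its clients to HSP90 or to chaperonins. Under proteotoxic stress the transcription factor HSF1 binds heat shock elements, short repeats of the letters GAA and their complement, near the start of many of these genes. In macrophages HSP70 proteins also take part in antigen handling and in survival of stress.

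The DNA beside the starts of 6 genes is shown first. They were picked because they rose with zymosan and each holds at least 1 run of heat shock units, as defined below. So picked, they do not show that a rise and such runs go together. The promoter windows are RefSeq's (GRCm38.p6), each 250 bases before to 50 bases after a transcription start, and 64 of the 78 genes had at least 1. A run of heat shock units was searched on both strands: GAANNTTC or TTCNNGAA for a run of 2 units, GAANNTTCNNGAA or TTCNNGAANNTTC for a run of 3, and 1 unit more, in either order, for a run of 4. The shorter runs lie within the longer ones and may overlap each other. Capitals below mark every run of 2 or more units, and the sequences are written 5′ to 3′ on the strand of the gene.
Hspa1b (chr17:34959189-34959488, minus strand): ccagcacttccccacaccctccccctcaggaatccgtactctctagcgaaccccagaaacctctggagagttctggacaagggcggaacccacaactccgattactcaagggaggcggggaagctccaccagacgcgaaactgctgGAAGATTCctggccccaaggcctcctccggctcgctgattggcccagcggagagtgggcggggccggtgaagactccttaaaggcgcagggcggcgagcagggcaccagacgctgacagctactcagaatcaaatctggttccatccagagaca
Hspa1a (chr17:34972107-34972406, minus strand): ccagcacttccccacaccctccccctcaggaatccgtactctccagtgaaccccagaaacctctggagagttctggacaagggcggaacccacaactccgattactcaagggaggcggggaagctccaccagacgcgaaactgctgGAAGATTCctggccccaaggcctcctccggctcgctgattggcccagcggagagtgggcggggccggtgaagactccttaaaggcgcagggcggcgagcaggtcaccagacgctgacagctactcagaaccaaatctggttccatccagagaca
Hspe1 (chr1:55087898-55088197, plus strand): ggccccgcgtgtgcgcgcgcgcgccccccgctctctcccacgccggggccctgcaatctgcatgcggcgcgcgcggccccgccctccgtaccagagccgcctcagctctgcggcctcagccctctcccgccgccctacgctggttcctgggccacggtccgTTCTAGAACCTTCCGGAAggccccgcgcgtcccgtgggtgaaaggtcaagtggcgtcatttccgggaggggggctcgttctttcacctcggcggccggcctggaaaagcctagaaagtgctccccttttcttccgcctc
Hsph1 (chr5:149636266-149636565, minus strand): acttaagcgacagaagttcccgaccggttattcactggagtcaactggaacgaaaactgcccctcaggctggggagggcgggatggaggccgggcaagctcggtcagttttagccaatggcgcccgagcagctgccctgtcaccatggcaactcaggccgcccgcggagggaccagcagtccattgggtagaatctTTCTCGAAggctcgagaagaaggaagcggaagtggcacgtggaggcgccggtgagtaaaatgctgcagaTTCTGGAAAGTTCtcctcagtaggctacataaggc
Hspb1 (chr5:135887669-135887968, plus strand): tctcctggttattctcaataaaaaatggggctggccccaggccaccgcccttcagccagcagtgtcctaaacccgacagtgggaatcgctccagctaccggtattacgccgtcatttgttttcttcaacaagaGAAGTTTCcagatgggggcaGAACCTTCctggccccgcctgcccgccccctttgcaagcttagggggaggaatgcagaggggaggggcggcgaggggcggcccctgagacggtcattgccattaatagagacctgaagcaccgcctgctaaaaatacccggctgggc
Dnajb4 (chr3:152193796-152194095, minus strand): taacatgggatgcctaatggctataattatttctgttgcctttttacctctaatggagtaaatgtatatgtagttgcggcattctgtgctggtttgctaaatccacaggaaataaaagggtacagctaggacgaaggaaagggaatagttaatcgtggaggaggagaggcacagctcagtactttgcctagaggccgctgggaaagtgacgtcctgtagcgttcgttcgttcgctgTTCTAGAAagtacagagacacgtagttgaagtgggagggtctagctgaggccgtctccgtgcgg

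The Hspa1a and Hspa1b windows carry the same letters at 296 of 300 positions and the same single run of 2 units, which begins 104 bases before the start of each. Hspe1 and Hspd1 are transcribed away from each other from neighbouring starts, and 285 bases of the Hspe1 window are also part of a window of Hspd1. That shared stretch holds a run of 4 units, which begins 89 bases before the start of Hspe1. Hsph1 has a run of 3 units within the 50 bases after the start shown. Hspb1 has 2 separate runs of 2 units and this start of Dnajb4 has 1.

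Runs of 2 units were common in general, and longer ones were rare. Of all 27025 genes with a window, 17% had a run of 2 units, 0.662% a run of 3 and 0.0296% a run of 4 in at least 1 window. Of the 15 genes with a window that rose with zymosan (limma adjusted p under 0.05, described below), 9 had a run of 2 units, namely Bag3, Dnajb4, Dnajc27, Hspa1a, Hspa1b, Hspb1, Hspd1, Hspe1 and Hsph1. Among the 39 genes with a window that were tested and not called, 7 had one, and Dnaja4 of these had 2 separate runs. Neither of the lower genes had one. A run of 3 units was found in 3 of the 15 and in 1 of the 39, Dnajb6. These are counts of letters in fixed windows, chosen with results of these arrays known. They are not independent, since Hspa1a and Hspa1b are near copies and Hspd1 and Hspe1 share their stretch. Genes without a window were not searched. They include 11 that were not called, with Hspa8, Hspa9 and Hsp90aa1 among them, and 3 that rose, Dnajc2, Hspa13 and St13.

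A difference is the mean of the zymosan arrays minus that of the unstimulated arrays, on the log2 scale of the deposited RMA values, so that 1 is a doubling. The probe set of highest mean represented each gene. A gene was tested where its probe set reached the 40th percentile of the array, a level of 4.36 to 4.39, on at least 2 arrays, which kept 13213 genes. Of the 78 chaperone genes 70 were kept and tested. The other 8, Hspa12b, Hspa1l, Hspb9, Dnajb3, Dnajb7, Dnajc5g, Dnajc6 and Hsf2, had no probe set that passed, and their values lay between 3.01 and 4.36 on the 4 arrays. A gene was called where limma's adjusted p, over all 13213 genes, was under 0.05. The smallest 2-sided p that an exact permutation of 2 against 2 arrays allows is 0.333, so the calls rest on limma's variance shared across genes.

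All 8 macrophage markers checked (Adgre1, Csf1r, Cd68, Lyz2, Mertk, Fcgr1, Itgam and Cd14) were among the tested genes, and none lay below the filter's level on all arrays. Of these, 5 fell (Adgre1, Csf1r, Fcgr1, Itgam and Cd14), and their 8 linear values summed to 41577 and 41563 on the zymosan arrays, against 47036 and 50092 on the unstimulated arrays. The zymosan arrays were scanned on 1 day, 153 days after the first unstimulated array, by another operator and under another project name, and the unstimulated arrays 16 days apart. Scan day, operator and stimulus therefore cannot be told apart in any value below. Markers of granulocyte precursors and neutrophils were higher on the zymosan arrays, with 10 of 11 tested past the threshold. The sum of their linear values was 5136 and 5342 on the zymosan arrays, against 1129 and 1172 on the unstimulated arrays, and none of the 11 was below the level on every array. The sums for T and NK cell markers were 215 and 229 on the zymosan arrays and 228 and 241 on the unstimulated arrays, with Cd3g, Cd3d and Ncr1 below the level on all 4. Of the remaining lists, Pf4 of the erythroid and megakaryocyte markers was called higher, with sums of 9253 and 9739 on the zymosan arrays, against 6864 and 7360 on the unstimulated arrays, and Hba-a1 below the level on all 4. Klf1, Itga2b and Gp9, the other tested markers of that list, differed by 0.01, -0.15 and 0.18. Their groups overlapped and none was called. Cd79b of the B cell markers was called lower, and limma called none of the dendritic cell, mast cell and fibroblast markers. In RNA from a mixed population, fewer cells of a type and less RNA per cell cannot be told apart. The part that the granulocyte markers and Pf4 have in the chaperone values was not tested.

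With zymosan, the stress-inducible HSP70 genes Hspa1b and Hspa1a rose 9.59-fold and 8.78-fold, and 16 other chaperone genes rose by up to 2.50-fold. Of the 70 tested genes, 18 rose (25.7%) and 2, Dnajc7 and Dnajc17, fell (2.86%). Of all genes tested, 10.1% were called higher, 6.74% lower and 16.8% in either direction. At an unadjusted p under 0.05, 28 of the 70 were higher and 4 lower, where 2450 of all 13213 genes were higher and 1839 lower. The median difference was 0.21 over the 70 genes and 0.00461 over all genes. Arrays of the 2 groups did not overlap, with zymosan higher, for 42 of the 70, where 32.4% of all genes showed this, and with zymosan lower for 10, where 28.2% did. With the scan day as a random block, its correlation pooled over genes (a setting chosen after seeing the data), 9 rose and 1 fell, and Bag3, Dnaja3, Dnajc13, Dnajc15, Dnajc17, Dnajc27, Hspa13, Hspa14, Hspb1 and St13 lost their calls. Without zymosan replicate 1, and likewise without zymosan replicate 2, limma called 2 of the 70 higher, Hspa1a and Hspa1b both times, and 0 lower. In each of these fits the lone zymosan array is assumed to vary like the unstimulated ones, so neither shows whether the other rises persist. Without unstimulated replicate 1, Dnajc13 and St13 lost their calls, and Dnajc4 and Hspa4 were called as well. Without unstimulated replicate 2, Dnaja3 lost its call, and Bag2, Dnaja1, Dnajb14, Dnajc3, Hspa8, Hspb6, Hspb8, Hspb11 and Stip1 were called as well. Of these, Hspb6 was lower with zymosan. Dnajb14 read 7.01 and 6.63 with zymosan, against 6.64 on unstimulated replicate 1, at the probe set of the main fit. Its other probe set read 6.95 and 7.18, against 6.33. Which of them gave the call of Dnajb14 was not examined.

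**Figure D1:**
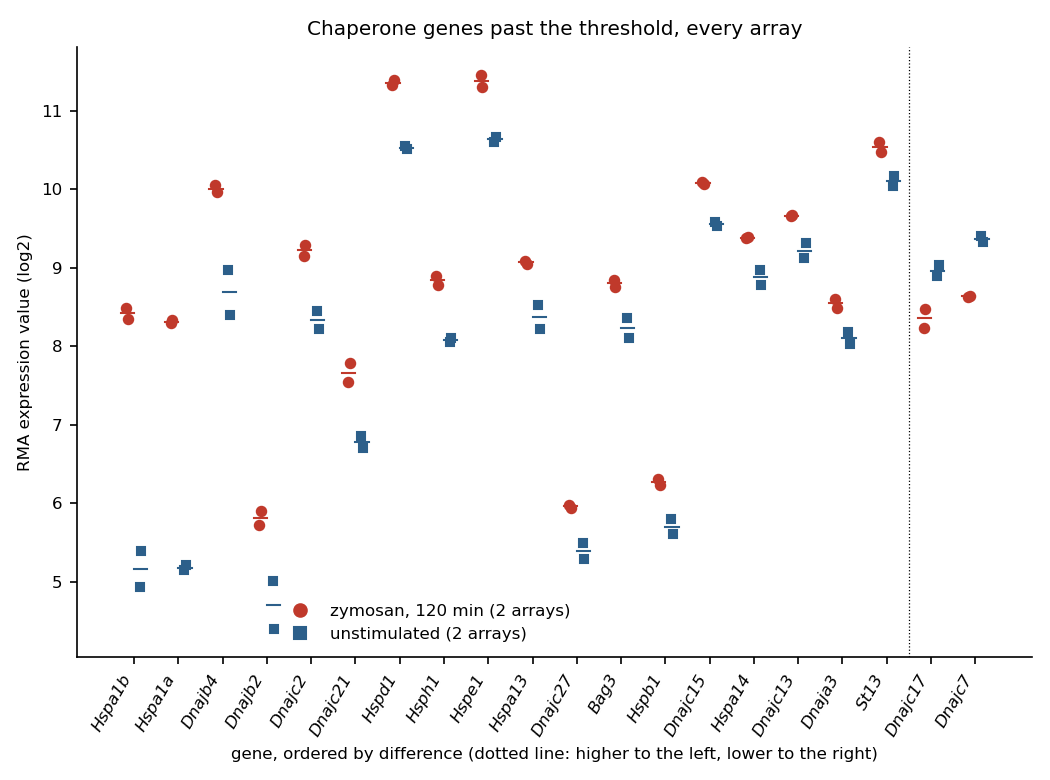
RMA expression value (log2, vertical axis) of the 20 called chaperone genes on every array, with zymosan arrays as red circles to the left and unstimulated arrays as blue squares to the right of each gene, and lines at the group means. Hspa1a and Hspa1b have all zymosan values above 8 and all unstimulated values below 5.5. For each gene shown the 2 groups do not overlap, which the call itself favours.

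The pair of inducible HSP70 genes had the largest differences of the 70. Hspa1a, which encodes the HSP70 that stress induces in the cytosol, read 8.30 and 8.34 in the zymosan arrays, against 5.15 and 5.22 in the unstimulated arrays. It rose 8.78-fold, a difference of 3.13 (SE 0.10, limma adjusted p = 0.000172). Both zymosan arrays were far above both unstimulated arrays, and the arrays of a group nearly coincided. Its near copy Hspa1b read 8.49 and 8.35 in the zymosan arrays, against 4.93 and 5.39 in the unstimulated arrays, and rose 9.59-fold (difference 3.26, SE 0.17, limma adjusted p = 0.000626). By the size of their differences the pair ranked 8 (Hspa1b) and 12 (Hspa1a) from the top of the 13213 genes. The unstimulated arrays were 0.46 apart for Hspa1b, the lower being replicate 1. Values of a probe set other than the one that represents a gene come from a fit over all 27554 kept probe sets. Both other probe sets of Hspa1b lay below the filter's level on both unstimulated arrays, so they passed the filter only through the zymosan arrays. With zymosan they read at least 12.9-fold and at least 7.77-fold above that level. Being kept through that group, they are no separate support for the rise. Because the transcripts are nearly identical, short probes may not separate Hspa1a from Hspa1b, and the values may describe their sum. Hspa1l, the testis-enriched neighbour of Hspa1a that starts 547 bases away on the opposite strand, stayed below the level on all 4 arrays, at 3.86 and 4.15 with zymosan, against 3.65 and 3.46 in unstimulated cells.

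The HSP70 genes that most cells express without stress did not pass the test. Hspa8, the HSP70 made by nearly all cells, read 12.95 and 12.98 in the zymosan arrays, against 12.57 and 12.96 in the unstimulated arrays. The groups overlapped, and the difference of 0.20 (SE 0.15, limma adjusted p = 0.409) did not pass. For Hspa9, the mitochondrial HSP70, the values were 10.54 and 10.50 in the zymosan arrays, against 10.41 and 10.26 in the unstimulated arrays, a difference of 0.18 (SE 0.10, limma adjusted p = 0.280) that did not pass either. Hspa2, enriched in testis, differed by 0.02 (SE 0.11, limma adjusted p = 0.945), and Hspa12a, a distant relative, by -0.27 (SE 0.10, limma adjusted p = 0.119). Hspa13 and Hspa14, also relatives of HSP70, rose. Hspa13, a protein of microsomes, read 9.09 and 9.05 in the zymosan arrays, against 8.53 and 8.22 in the unstimulated arrays, a difference of 0.70 (SE 0.13, limma adjusted p = 0.0205). Hspa14, which pairs with Dnajc2 on the ribosome, read 9.38 and 9.39 in the zymosan arrays, against 8.98 and 8.78 in the unstimulated arrays, a difference of 0.50 (SE 0.11, limma adjusted p = 0.0312). In neither did the groups overlap, but with all kept probe sets averaged Hspa13 differed by 0.10 (adjusted p = 0.644) and Hspa14 by 0.32 (adjusted p = 0.0793).

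The large HSP70 relatives of the HSP110 type, which exchange the nucleotide of HSP70, include 3 genes, of which Hsph1 rose. Hsph1 read 8.90 and 8.78 in the zymosan arrays, against 8.05 and 8.11 in the unstimulated arrays, and rose 1.69-fold (difference 0.76, SE 0.10, limma adjusted p = 0.00821). A second probe set of Hsph1 differed by 0.55 (SE 0.14, limma adjusted p = 0.0516). Hspa4, which has the same role, differed by 0.47 (SE 0.14, limma adjusted p = 0.0703), with arrays that did not overlap but with 0.34 between the unstimulated arrays, and did not pass. Hspa4l differed by 0.30 (SE 0.10, limma adjusted p = 0.105) at the probe set that represented it. In all, 5 of the 11 tested genes of the HSP70 and HSP110 group rose (45.5%), where 10.1% of all genes were called higher. The 5 include Hspa1a and Hspa1b, which short probes may not separate. Limma called 0 lower, where 6.74% of all genes were, and 1, Hspa12a, was lower at an unadjusted p under 0.05. The median difference of the group was 0.47.

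HSP90 genes did not pass the test. Hsp90aa1, the stress-inducible cytosolic HSP90, read 11.83 and 12.01 in the zymosan arrays, against 11.80 and 11.72 in the unstimulated arrays. Its difference was 0.16 (SE 0.11, limma adjusted p = 0.387). Hsp90b1, the HSP90 of the endoplasmic reticulum, read 11.68 and 11.95 in the zymosan arrays, against 11.54 and 11.81 in the unstimulated arrays, with overlapping groups and a difference of 0.14 (SE 0.15, limma adjusted p = 0.556). Its second probe set went the other way, at 10.72 and 10.45 in the zymosan arrays, against 11.05 and 11.39 in the unstimulated arrays, with no overlap and a difference of -0.64 (SE 0.16, limma adjusted p = 0.0538) that just missed the threshold. Limma thus called 0 of these 2 genes, and at the probe sets that represented them neither reached an unadjusted p under 0.05. Of all genes 10.1% were called higher and 6.74% lower, and 2 genes are too few to compare with these shares. Adaptors that link HSP70 to HSP90 were close to the threshold on either side. St13, or HIP, which holds HSP70 in its ADP state, read 10.61 and 10.48 in the zymosan arrays, against 10.05 and 10.17 in the unstimulated arrays, and rose by 0.43 (SE 0.11, limma adjusted p = 0.0432). Stip1, or HOP, which bridges HSP70 and HSP90, read 8.93 and 8.90 in the zymosan arrays, against 8.49 and 8.59 in the unstimulated arrays, a difference of 0.37 (SE 0.10, limma adjusted p = 0.0538) that just missed. When all kept probe sets of a gene were averaged, St13 differed by 0.06 (adjusted p = 0.773), and Stip1 passed with 0.37 (adjusted p = 0.0456).

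Both subunits of the mitochondrial chaperonin rose, with differences that lay within 1 SE of each other. Hspd1, or HSP60, which forms the folding chamber, read 11.33 and 11.39 in the zymosan arrays, against 10.55 and 10.51 in the unstimulated arrays. It rose 1.78-fold, a difference of 0.83 (SE 0.10, limma adjusted p = 0.00560). Hspe1, or HSP10, the lid of the chamber, read 11.46 and 11.30 in the zymosan arrays, against 10.61 and 10.67 in the unstimulated arrays, and rose 1.68-fold (difference 0.74, SE 0.11, limma adjusted p = 0.00965). In both genes the arrays of a group lay much closer together than the groups did. A second probe set of Hspe1 rose by 0.69 (SE 0.13, limma adjusted p = 0.0236). The shared stretch of DNA between these genes is the one printed above under Hspe1.

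Small heat shock proteins, which bind unfolding proteins without ATP, had 1 gene that rose among the 6 tested (16.7%). Of all genes 10.1% were called higher, and 6 genes are too few to tell these shares apart. Hspb1, the widely expressed member, read 6.30 and 6.24 in the zymosan arrays, against 5.80 and 5.60 in the unstimulated arrays. It rose 1.48-fold (difference 0.57, SE 0.11, limma adjusted p = 0.0229), with no overlap, while a second probe set differed by 0.55 (SE 0.17, limma adjusted p = 0.0836). Of the other 5 tested, none was called by limma, and none reached an unadjusted p under 0.05. Hspb8, the partner of Bag3 in clearing misfolded proteins, differed by 0.32 (SE 0.15, limma adjusted p = 0.220). Hspb2, Hspb3, Hspb6 and Hspb7, which muscle expresses, had differences from -0.28 to 0.21.

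Among the nucleotide exchange factors, Bag3 rose. Bag3, which also steers HSP70 clients to autophagy and is a known target of HSF1, read 8.85 and 8.76 in the zymosan arrays, against 8.36 and 8.10 in the unstimulated arrays. The difference was 0.57 (SE 0.12, limma adjusted p = 0.0298), 1.49-fold, with an adjusted p of 0.0805 when the scan day was that block. The groups did not overlap, and the unstimulated arrays were 0.26 apart, more than the zymosan arrays. Bag1 differed by 0.24 (SE 0.10, limma adjusted p = 0.167) and Bag2 by 0.29 (SE 0.14, limma adjusted p = 0.203), neither past the threshold. Hspbp1, an exchange factor that opposes HSP70 folding, differed by -0.30 (SE 0.10, limma adjusted p = 0.0934), with both zymosan arrays below both unstimulated arrays. Of the heat shock factors, Hsf2 was not tested, since it read 3.58 and 3.65 with zymosan, against 3.92 and 3.79 in unstimulated cells, below the level throughout.

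J-domain proteins, which deliver clients to HSP70 and start its ATP hydrolysis, included 8 genes that rose and 2 that fell. Of 44 such genes 40 were tested, so that 20% rose and 5% fell, where 10.1% of all genes were called higher and 6.74% lower. Their median difference was 0.13. Class B held the largest increases. Dnajb4, a cytosolic HSP40, read 10.06 and 9.97 in the zymosan arrays, against 8.98 and 8.40 in the unstimulated arrays. It rose 2.50-fold (difference 1.32, SE 0.19, limma adjusted p = 0.0104), and a second probe set rose by 1.11 (SE 0.16, limma adjusted p = 0.0121). Dnajb2, an HSP40 that binds ubiquitin chains, read 5.72 and 5.91 in the zymosan arrays, against 5.005 and 4.39 in the unstimulated arrays, and rose 2.17-fold (difference 1.12, SE 0.21, limma adjusted p = 0.0201). In both genes unstimulated replicate 1 was the higher of its pair, by 0.58 for Dnajb4 and 0.61 for Dnajb2, a spread that was still smaller than the difference between groups. The lower value of Dnajb2, 4.39 on unstimulated replicate 2, was just under that array's filter level. Dnajb1, the canonical heat-inducible HSP40, read 9.28 and 9.26 in the zymosan arrays, against 9.07 and 9.08 in the unstimulated arrays. Its arrays did not overlap and nearly coincided within groups, yet the difference of 0.20 (SE 0.09, limma adjusted p = 0.211) did not pass, and a second probe set of it differed by -0.16 (SE 0.12, limma adjusted p = 0.418). Limma called 0 class B genes lower, and 0 were lower at an unadjusted p under 0.05.

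Of the 4 class A genes, which resemble bacterial DnaJ most closely, 1 rose (25%). Among all genes 10.1% were called higher, and 4 genes are too few to tell these shares apart. Dnaja3, the class A protein of mitochondria and a partner of Hspa9, read 8.61 and 8.49 in the zymosan arrays, against 8.18 and 8.04 in the unstimulated arrays, a difference of 0.44 (SE 0.11, limma adjusted p = 0.0430). With its kept probe sets averaged, Dnaja3 differed by 0.10 (adjusted p = 0.552). Dnaja1, a cytosolic partner of HSP70, differed by 0.42 (SE 0.11, limma adjusted p = 0.0562) and Dnaja2, another, by 0.35 (SE 0.10, limma adjusted p = 0.0620). Both of these had zymosan arrays above the unstimulated ones and missed the threshold narrowly. Dnaja4 differed by -0.19 (SE 0.13, limma adjusted p = 0.347).

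Class C, the most diverse, had 5 higher (20%) and 2 lower (8%) genes of 25 tested, and the lower share was near the 6.74% of all genes. The largest increases were of genes tied to the ribosome. Dnajc2, the partner of Hspa14 at the ribosome, read 9.15 and 9.29 in the zymosan arrays, against 8.45 and 8.22 in the unstimulated arrays, and rose 1.85-fold (difference 0.89, SE 0.12, limma adjusted p = 0.00895). Dnajc21, whose yeast relative helps to mature the large ribosomal subunit, read 7.54 and 7.79 in the zymosan arrays, against 6.86 and 6.71 in the unstimulated arrays, and rose 1.84-fold (difference 0.88, SE 0.13, limma adjusted p = 0.00965). In both genes every zymosan array lay above every unstimulated array. Dnajc27, a small GTPase with a J domain, read 5.98 and 5.95 in the zymosan arrays, against 5.50 and 5.28 in the unstimulated arrays, a difference of 0.57 (SE 0.11, limma adjusted p = 0.0231). Dnajc15, which sits in the inner membrane of mitochondria, read 10.10 and 10.07 in the zymosan arrays, against 9.58 and 9.53 in the unstimulated arrays, and differed by 0.53 (SE 0.09, limma adjusted p = 0.0179). Dnajc13, an endosomal protein, read 9.66 and 9.67 in the zymosan arrays, against 9.13 and 9.31 in the unstimulated arrays, a difference of 0.44 (SE 0.11, limma adjusted p = 0.0419). With kept probe sets averaged, Dnajc21 differed by 0.23 (adjusted p = 0.172) and Dnajc13 by 0.00949 (adjusted p = 0.968). The rises of Dnajc27 and Dnajc15 were about the size of that of Hspb1, while Dnajc13 was among the smallest called.

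The genes that fell were also of class C. Dnajc7, a cochaperone whose TPR repeats bind both HSP70 and HSP90, read 8.64 and 8.64 in the zymosan arrays, against 9.41 and 9.33 in the unstimulated arrays. It fell by 0.73 on the log2 scale (SE 0.10, limma adjusted p = 0.00777). The zymosan arrays were almost identical to each other and clearly below the unstimulated pair. Dnajc17, a nuclear protein, read 8.23 and 8.48 in the zymosan arrays, against 8.89 and 9.04 in the unstimulated arrays, and fell by 0.61 (SE 0.12, limma adjusted p = 0.0263). Its second probe set differed by -0.34 (SE 0.12, limma adjusted p = 0.111). Of the tested class C genes that were not called, the largest differences were those of Dnajc4, at 0.39 (SE 0.11, limma adjusted p = 0.0677), and Dnajc25, at 0.36 (SE 0.10, limma adjusted p = 0.0599).

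Of the genes taken by the symbol rule, Dnajb11, Dnajb9, Dnajc3 and Dnajc10, J-domain proteins of the endoplasmic reticulum, did not pass. Dnajb11, a cofactor of the reticulum's HSP70, read 10.25 and 10.12 in the zymosan arrays, against 9.81 and 9.85 in the unstimulated arrays, a difference of 0.35 (SE 0.10, limma adjusted p = 0.0670). Dnajb9, which is induced by unfolded proteins there, read 9.07 and 9.26 in the zymosan arrays, against 8.98 and 9.35 in the unstimulated arrays, with complete overlap and a difference of 0.00104 (SE 0.15, limma adjusted p = 0.999). Dnajc3 differed by 0.32 (SE 0.16, limma adjusted p = 0.232) and Dnajc10, a disulfide reductase, by 0.30 (SE 0.10, limma adjusted p = 0.105). For Dnajb9, Dnajc3 and Hsp90b1 the unstimulated arrays were themselves 0.37, 0.42 and 0.28 apart, replicate 2 being the higher each time. Their zymosan arrays were 0.19, 0.20 and 0.27 apart, also with replicate 2 higher. In Dnajb11 the unstimulated arrays were only 0.04 apart, and in Dnajc10 replicate 1 was the higher, by 0.14.

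**Figure D2:**
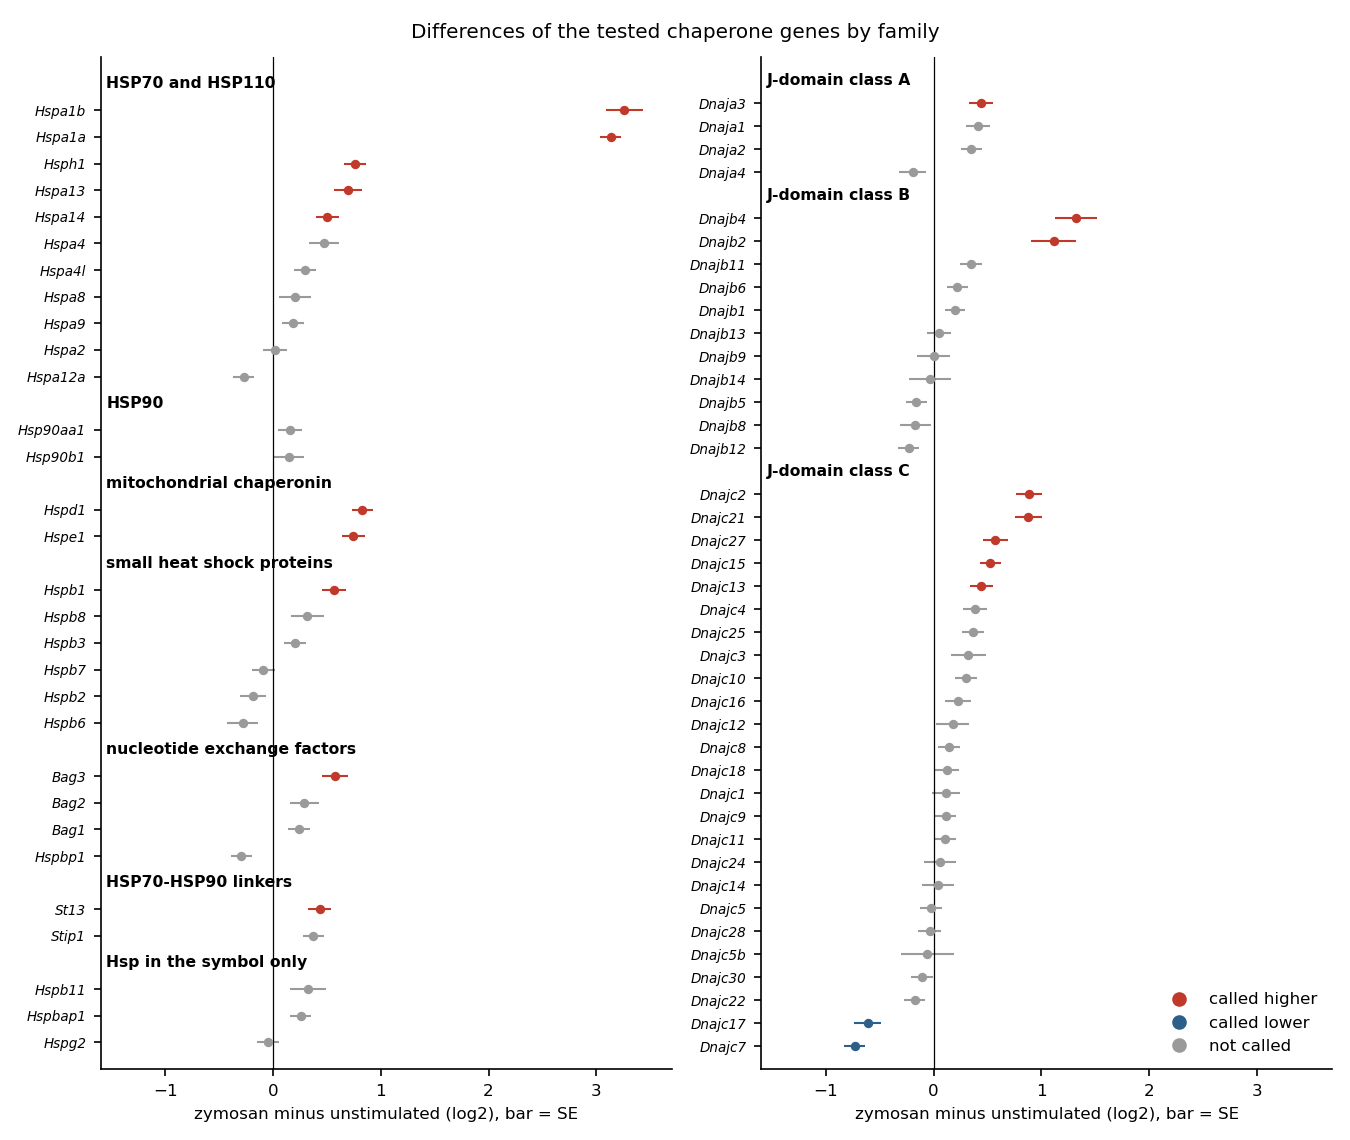
Difference of zymosan minus unstimulated (log2, horizontal axis) with its limma standard error for the 70 tested genes, ordered by family, members without a J domain on the left and J-domain genes on the right. Red points were called higher, blue points lower and grey points not called. Hspa1a and Hspa1b lie beyond 3, and Dnajb4 and Dnajb2 are the only others of the 70 beyond 1.

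The rule also took in 3 genes that carry Hsp in their symbol without being heat shock chaperones. Limma called 0 of them, where 1 had an unadjusted p under 0.05. Of all genes 10.1% were called higher and 6.74% lower, and 3 genes are too few to compare with these shares. Hspg2, which encodes the matrix proteoglycan perlecan, differed by -0.05 (SE 0.10, limma adjusted p = 0.800). Hspb11, a component of intraflagellar transport, differed by 0.32 (SE 0.16, limma adjusted p = 0.233) and Hspbap1, named for its binding of HSPB1, by 0.25 (SE 0.10, limma adjusted p = 0.127).

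The spread within each pair of arrays gives a scale for these differences, though it leaves out the change of operator and scan day between the groups. Over the 70 genes the zymosan arrays were a median of 0.11 apart, and the unstimulated arrays 0.14. Over all 13213 genes these medians were 0.10 for the zymosan arrays and 0.14 for the unstimulated arrays. The SD of the differences over the chaperone genes was 0.17 within the zymosan pair and 0.23 within the unstimulated pair, against 0.63 to 0.64 between arrays of the 2 groups. Over all genes, the values were 0.17 within the zymosan pair and 0.26 within the unstimulated pair, against 0.46 to 0.48 between the groups. The chaperone SD between the groups includes Hspa1a and Hspa1b, which differed by 3.13 and 3.26, where the next largest, Dnajb4, differed by 1.32. It was not computed without that pair, so the larger SD does not describe the other chaperone genes. Each of the 20 called genes had a larger difference between groups than between the unstimulated arrays, as the plot of one against the other shows. The call itself selects for this, since limma weighs a difference against the scatter within groups. It is therefore no separate support.

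**Figure D3:**
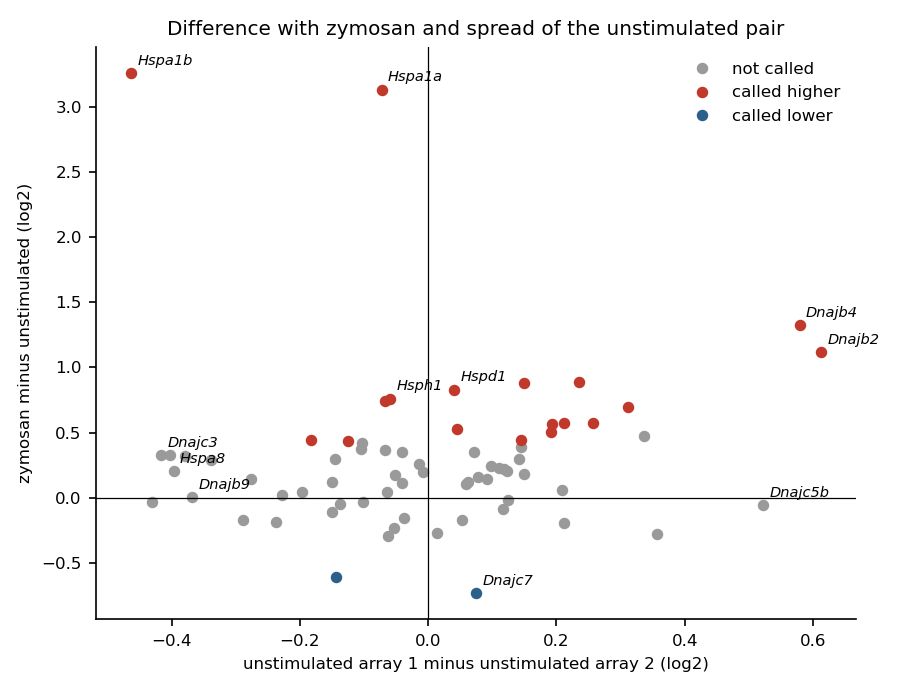
Difference of zymosan minus unstimulated (log2, vertical axis) against unstimulated array 1 minus unstimulated array 2 (log2, horizontal axis) for the 70 tested chaperone genes, 1 point a gene, coloured by call. Hspa1a and Hspa1b lie at the top, Dnajb4 and Dnajb2 at the right with the widest spread among the called genes, and most grey points lie within 0.4 of 0 on both axes.

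Probe sets of a gene did not always give the same reading. The 78 genes had 182 probe sets, of which 147 passed the filter. Tested over all 27554 kept probe sets, 27 of the 147 were higher and 4 lower, where 8.49% of all were higher and 7.45% lower. Of the 41 genes with more than 1 kept probe set, 15 had unlike calls among them. Dnajc5, the cysteine string protein of vesicles, was called in both directions, with 0.50 (SE 0.12, limma adjusted p = 0.0408) at one probe set and -0.77 (SE 0.12, limma adjusted p = 0.0156) at another, while the one that represented it differed by -0.02 (SE 0.10, limma adjusted p = 0.918).

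For several genes a dimmer probe set had a larger difference than the one that represented the gene. Hspa4l read 5.83 and 5.91 in the zymosan arrays, against 4.34 and 4.58 in the unstimulated arrays at one of them, a difference of 1.41 (SE 0.13, limma adjusted p = 0.00413). Another rose by 1.27 (SE 0.12, limma adjusted p = 0.00462) and one more by 0.57 (SE 0.10, limma adjusted p = 0.0209). Dnaja2 rose by 1.14 (SE 0.13, limma adjusted p = 0.00670) at one probe set, and the other 3 did not pass. A dim probe set of Hspa8 read 5.76 and 5.56 in the zymosan arrays, against 4.84 and 4.46 in the unstimulated arrays, a difference of 1.01 (SE 0.16, limma adjusted p = 0.0159), while its 3 brighter probe sets differed by 0.20, -0.03 and 0.02 and did not pass. Hspa9 fell at one probe set, by 0.85 (SE 0.16, limma adjusted p = 0.0240), and differed by 0.65 (SE 0.17, limma adjusted p = 0.0531) at another. For Hspa13, Hspa14, Dnajc2, Dnajc21, Dnajc27, Dnajc17, Hsph1 and Hspb1, the probe set that represented the gene was called and its other kept probe sets were not. Which transcript forms these probe sets detect was not examined.

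**Figure D4:**
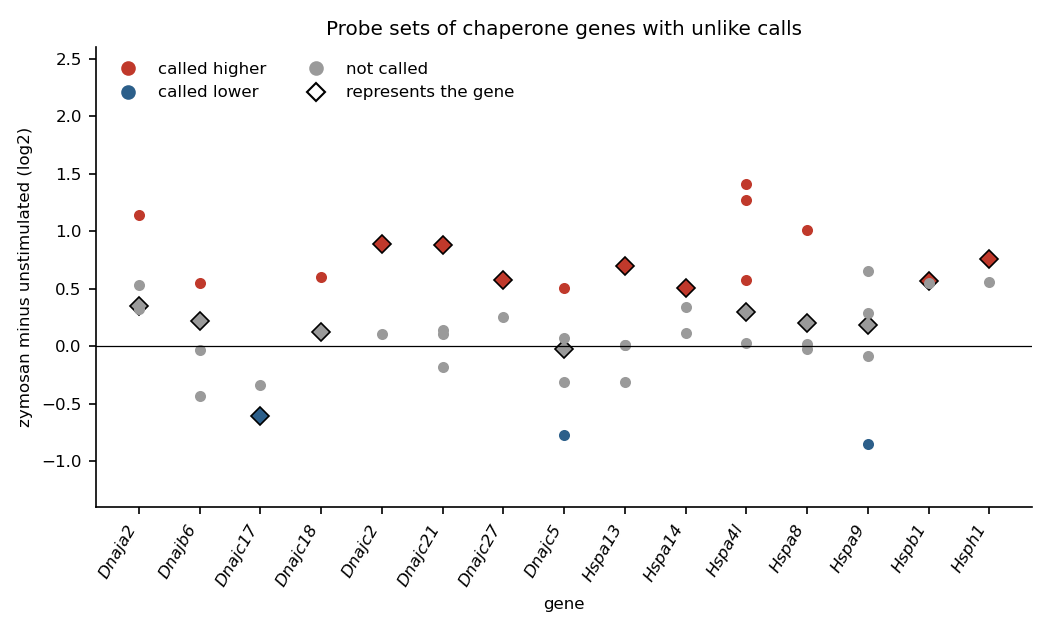
Difference of zymosan minus unstimulated (log2, vertical axis) at each kept probe set of the 15 chaperone genes whose probe sets had unlike calls. Diamonds mark the probe set that represented the gene, and red, blue and grey stand for called higher, called lower and not called. Hspa4l has 3 red points above its grey diamond, and Dnajc5 has a red and a blue point.

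Of all genes tested, 10.1% were called higher and 6.74% lower, and the lists of chaperone genes outside the symbol rule are read against these shares. Of 14 tested helpers of HSP90 and HSP70 (such as Ahsa1, Cdc37, Fkbp4, Chordc1 and Stub1), limma called 0, where 2 were higher and 1 lower at an unadjusted p under 0.05. Of 14 genes of the cytosolic chaperonin TRiC and of prefoldin, which fold actin and tubulin among others, 1 rose (7.14%). It was Cct7, at 10.78 and 10.83 in the zymosan arrays, against 10.42 and 10.33 in the unstimulated arrays, a difference of 0.43 (SE 0.10, limma adjusted p = 0.0362). The median difference over these 14 was 0.18. Among 8 further mitochondrial chaperones and proteases 1 rose (12.5%), namely Grpel1, the exchange factor of Hspa9, by 0.39 (SE 0.09, limma adjusted p = 0.0422), and the median was 0.27.

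Of 14 tested genes on a list of other heat shock and stress genes, not all induced by heat, 3 rose (21.4%) and 1 fell (7.14%). Of all genes 10.1% were called higher and 6.74% lower. At an unadjusted p under 0.05, 3 of the 14 were higher and 6 lower, where 2450 of all 13213 genes were higher and 1839 lower. The groups did not overlap, with zymosan higher, for 3, where 32.4% of all genes showed this. With zymosan lower they did not overlap for 8, where 28.2% of all genes showed this. Hmox1, heme oxygenase, read 12.15 and 12.10 in the zymosan arrays, against 11.30 and 10.81 in the unstimulated arrays, and rose 2.10-fold (difference 1.07, SE 0.17, limma adjusted p = 0.0129). Sqstm1, the autophagy receptor p62, rose by 0.81 (SE 0.15, limma adjusted p = 0.0208) and Hikeshi, which imports HSP70 into the nucleus under heat, by 0.50 (SE 0.10, limma adjusted p = 0.0269). Rgs2, a regulator of G-protein signalling, fell by 0.54 (SE 0.10, limma adjusted p = 0.0172). Ier5 and Dedd2, both heat-inducible, differed by -0.03 (SE 0.11, limma adjusted p = 0.864) and -0.34 (SE 0.10, limma adjusted p = 0.0633). The median of the list was -0.19, below that of all genes.

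**Figure D5:**
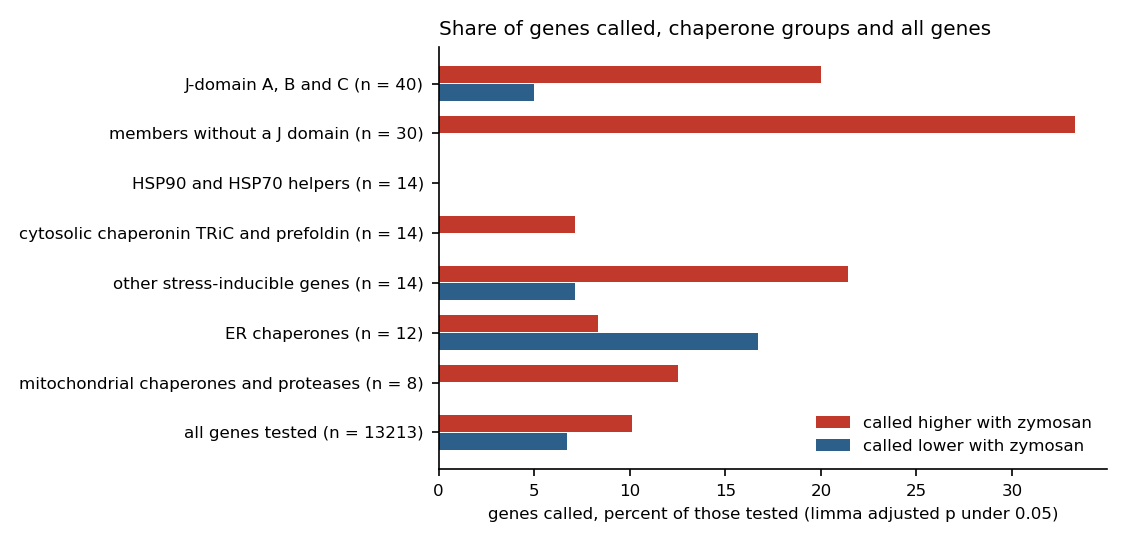
Percent of tested genes called higher (red) and lower (blue) with zymosan, by limma adjusted p under 0.05, for the chaperone genes with and without a J domain, 5 lists of other chaperone and stress genes, and all genes tested, with the number tested in brackets. The members without a J domain reach 33.3% higher and the J-domain genes 20.0%, against 10.1% of all genes.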

How the data were processed

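RNA from 2 zymosan and 2 unstimulated samples was labelled from 4 ug of total RNA and measured on Mouse430_2 arrays, per the file headers and labels. The authors deposited RMA summaries on the log2 scale for every probe set, per the submitters' processing notes. Which version was run, and on which arrays jointly, is not given in the sources used here. With array medians of 4.92 to 4.95, nothing was normalized further. Scan day and operator came from deposited experiment description files.

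Controls (64) were set aside. Of 45037 probe sets, 34945 had 1 symbol in the platform annotation, 932 several and 9160 none, and only those with 1 symbol were named. Differences were tested with lmFit and eBayes (limma 3.58.1, R 4.3.3), 2-sided, with Benjamini-Hochberg adjustment. The fit was tested on simulated data of 13213 genes, with independent scatter on each array and no effect of scan day. It recovered 44% of changes of 0.5 and 98% of changes of 1, with 16 false calls. A gene that did not pass may therefore still differ by about 0.5. The number of arrays limits the precision. A fold against a group wholly under the filter's level uses that level and is a lower bound.

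The members, lists and motif were chosen with earlier results of these data known. Genes were named by rule: every called member, 21 core chaperones whatever their result (Hsf1 and Hsp90ab1 among them, not analysed here), the 3 largest other members and up to 4 called genes of each outside list. Other members and probe sets were named after their values were seen. Coordinates are those of RefSeq's windows, since no build was named for the array. Alternatives were other filters, averaged probe sets, renormalization, a variance trend, the scan day as a random block, and leaving out each array.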

Additional observations from a re-analysis of the deposited data

How the results depend on the processing

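The counts of 18 higher and 2 lower chaperone genes stayed within 1.5 times under each change of filter, probe set rule, normalization and variance prior, at 15 to 23 higher and 2 lower. With the scan day as a random block they were 18 and 2 where limma's trimmed estimate of the correlation (0.0360) was used. With the correlation pooled over genes (0.485), chosen after seeing the data, they were 9 and 1, and over all genes 587 higher and 399 lower instead of 1335 and 890. Those 10 genes were all among the 20, and 17 of the named genes, members and others, lost their calls. Leaving out each array in turn gave 2 to 25 higher and 0 to 3 lower chaperone genes, medians of 0.19 to 0.27, and 132 to 1853 higher and 89 to 1131 lower genes of all. The fall to 2 came without either zymosan array, where the lone zymosan array is assumed to vary like the unstimulated ones. Hspa1a and Hspa1b were called under all 12 alternatives, at differences of 3.10 to 3.17 and 3.03 to 3.52. Averaging all kept probe sets ended the calls of Hspa13 (0.10), Hspa14 (0.32), Dnaja3 (0.10), Dnajc13 (0.00949), Dnajc21 (0.23) and St13 (0.06). No called difference changed sign. No paired analysis was possible because the labels give the arrays no shared replicate numbers. Signal under the filter's level on some arrays limits Hspb3, Dnaja4, Dnajc5b and Dnajb2 among others, and the 8 genes not tested.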

Other observations

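Folding enzymes of the endoplasmic reticulum outside the symbol rule were often uneven within the unstimulated pair. Of 12 tested, 1 rose (8.33%) and 2 fell (16.7%), where 10.1% of all genes were called higher and 6.74% lower. Pdia4, a protein disulfide isomerase, read 7.95 and 7.86 in the zymosan arrays, against 8.70 and 9.35 in the unstimulated arrays, and fell by 1.13 (SE 0.21, limma adjusted p = 0.0209). Pdia3, another isomerase, fell by 0.89 (SE 0.19, limma adjusted p = 0.0315). Sec63, a J-domain protein of the translocation pore, rose by 0.61 (SE 0.13, limma adjusted p = 0.0292). With kept probe sets averaged neither Pdia3 (-0.44, adjusted p = 0.125) nor Sec63 (0.33, adjusted p = 0.0576) passed. Within the unstimulated pair the median of the 12 genes was -0.40 (replicate 1 minus replicate 2), against 0.04 over all genes. Sdf2l1 read 9.31 and 9.12 in the zymosan arrays, against 9.53 and 10.30 in the unstimulated arrays, and Hyou1 9.51 and 9.40 in the zymosan arrays, against 9.22 and 9.90 in the unstimulated arrays, so that in these 2 genes the unstimulated arrays lay further apart than the zymosan arrays did.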
